A study of Prunus sibirica with 6 samples.

Results

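Flower buds of Siberian apricot (Prunus sibirica) held RNA of 5 transcript clusters whose best Swiss-Prot match was the MYB transcription factor MYB44 or its close relative MYB73, and all 5 stood lower in buds of a male sterile clone than in buds of a male fertile clone. The decline was small in 3 of them, including the abundant MYB44 cluster, and large in 2 MYB73 clusters, which stood at 18.9% and 14.0% of their fertile FPKM. The clusters were chosen by the gene symbol in their Swiss-Prot description (MYB73, MYB44, MYB77 or MYB70), out of 1508 clusters in a table of transcription factors and other regulators. Of them 4 carried the symbol MYB73 and 1 MYB44, while MYB77 and MYB70 each matched 0 clusters. The rule reads no measured value, but the symbols were selected from this study's families with the sterile and fertile levels already known. For that reason their levels, fold changes and places relative to the threshold used for the whole table are a description and no test of these clusters, and nothing is supported with them.

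MYB factors with a pair of helix-turn-helix repeats form a large plant family that binds DNA through those repeats. MYB44, MYB70, MYB73 and MYB77 make up a small subgroup of that family in Arabidopsis. There MYB44 acts in abscisic acid response and stomatal closure and activates the defence gene WRKY70, MYB77 works with auxin response factors in root growth, and MYB73 acts in salt stress response. These roles come from Arabidopsis, mostly from leaves, seedlings and roots, and have no counterpart in the files for apricot buds.

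The samples were 3 bud samples each of male sterile clone No. 1 and male fertile clone No. 60, all labelled as being at microspore development, and none carried a treatment. Trees of a clone share their genotype, so each group is 1 genotype, and sterility cannot be told apart from any other difference between these genotypes. Buds were picked repeatedly from summer to the following spring, and neither the age of the trees nor the picking date of the sequenced buds is given in the sources used here. At issue is which genes differ between sterile and fertile buds of the same stage.

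Reads had been assembled into clusters, and each was given as an estimated read count and as FPKM, that is fragments scaled to cluster length and library size. The regulator counts summed to between 1242099 and 1424835 in fertile and between 957196 and 1122298 in sterile libraries. Floral organ identity factors were present in every library (5 clusters, summed FPKM 287 to 298 in fertile and 310 to 325 in sterile buds), with 2 called higher, 2 lower and 1 not called. The lower call of SEP1 (114 FPKM in fertile and 113 in sterile buds) was lost under other library scales. Without the carpel factor DL the other 4 summed to 254 to 262 FPKM in fertile and 241 to 255 in sterile buds. The 8 tapetum and anther clusters summed to 102 to 108 FPKM in fertile and 211 to 220 in sterile buds, and of 6 tested 3 were higher and 3 lower. That difference was carried by 1 cluster, BHLH10 (24.9 FPKM in fertile and 135 in sterile buds), without which the sums overlapped, at 77.8 to 82.3 and 78.5 to 82.3 FPKM. The overlapping sums hold opposite changes. An AMS cluster (Cluster-6671.7223) stood at 19.7 FPKM in fertile and 31.4 in sterile buds, and MYB26 (Cluster-6671.14971) at 21.9 and 12.6. Another AMS cluster (Cluster-6671.14745) went the other way, at 32.8 FPKM in fertile and 29.8 in sterile buds. Its lower call (log2 fold change -0.28) was lost under another library scale (-0.14). DL and BHLH10 were singled out after their values were seen. The sum of 5 pollen factor clusters was 57.1 to 62.5 FPKM in fertile and 67.4 to 72.5 in sterile buds. Of those clusters, 2 were called higher, 1 lower and 2 not. Without a MYB101 cluster the sums were 56.7 to 62.2 and 62.6 to 67.5 FPKM. The 5 vegetative bud and meristem clusters summed to 42.2 to 45.0 and 51.3 to 55.4, with 2 called higher and 3 not called. Without a KNAT6 cluster they gave 23.55 to 25.55 and 26.72 to 30.05. Both omissions were made with the values known. By FPKM, regulators in general moved upward in sterile buds (middle log2 fold change 0.15 in limma on log2(FPKM + 1)). Whether the higher sums exceed that shift was not tested. None of these marker clusters was at 0 in all libraries. The part of such tissue differences in the results below was not tested. In whole buds, fewer cells of a type and less RNA per cell cannot be told apart.

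The 5 clusters matched 5 different loci of the Japanese apricot Prunus mume by their best nucleotide hit, and 0 other regulator clusters shared any of these loci. Among the 1329 regulator clusters with such a locus, 4.52% shared it with another cluster. The MYB44 cluster (Cluster-6671.10846, 1891 bases) matched LOC103320378, a MYB44-like gene. Of the clusters named MYB73 by Swiss-Prot, 3 were named after MYB44 in Prunus: Cluster-6671.13116 (2299 bases) matched LOC103337666, Cluster-6671.12840 (1617 bases) LOC103335149 and Cluster-6671.19711 (1340 bases) LOC103320278. The other MYB73 cluster, Cluster-6671.12072 (1269 bases), matched LOC103333046, described only as Myb-like, and had the lowest Swiss-Prot score of the 5 (445, against 471 to 661). No Prunus description used the name MYB73, so the symbols below are names of the nearest Swiss-Prot entry and not a proof of orthology. The coding stretches that the authors marked ran from 261 codons in Cluster-6671.12072 to 338 in Cluster-6671.13116, and covered 44.1% to 61.7% of the cluster. Positions in a genome are not given, because the clusters are assembled transcripts.

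The MYB44 cluster was the most abundant of the 5 in every library. Its FPKM was 237, 209 and 214 in fertile replicates 1 to 3, and 192, 184.5 and 188 in sterile replicates 1 to 3. The groups did not overlap, and all 3 sterile libraries were lower. It ranked first among the 67 clusters of the R2R3-type MYB family in all 6 libraries, between 6th and 7th of all 1508 regulators in fertile buds and 9th in sterile buds. Here and below that family is the class which the authors label MYB. Some clusters with a MYB symbol, such as MYB6 and MYB90, stand outside this class. The group means were 220 ± 14.8 FPKM in fertile and 188 ± 3.96 in sterile buds (SD, n = 3). By FPKM, sterile buds thus held 85.7% of the fertile level. The log2 fold change, sterile over fertile, was -0.37 ± 0.07 (SE) in edgeR's fit to the counts of all regulators. That fit scales the libraries otherwise than FPKM does, and its value, 1.295-fold lower, is a larger decline than the FPKM percentage. The same holds for the other 4 clusters.

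Cluster-6671.13116, the second most abundant, differed least. Its FPKM was 65.7, 71.0 and 69.9 in fertile buds, against 63.0, 63.3 and 65.6 in sterile buds. The gap between the groups was narrow, from 65.58 in sterile replicate 3 to 65.68 in fertile replicate 1. Its log2 fold change was -0.25 ± 0.06. Its counts were not whole in any library (2048.32 in sterile replicate 1, for example), which can arise where reads are divided among similar clusters, so its level is given as uncertain. The other 4 had whole counts within 0.005, apart from 1 value of the MYB44 cluster (5760.01 in sterile replicate 3).

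Cluster-6671.12072 ranked 3rd in the authors' MYB class in all libraries. MYB6, outside that class, had a higher mean FPKM in both clones. The FPKM of Cluster-6671.12072 was 63.9, 60.4 and 61.2 in fertile and 54.8, 51.0 and 56.6 in sterile buds. Again the sterile libraries lay below the fertile ones without overlap. The log2 fold change was -0.35 ± 0.07, close to that of the MYB44 cluster.

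A large drop was seen in Cluster-6671.12840, a MYB44-like gene by its Prunus hits. Its FPKM was 46.2, 40.3 and 43.8 in fertile buds, against 8.11, 8.41 and 8.11 in sterile buds. Every sterile library was far below every fertile one. The log2 fold change was -2.55 ± 0.08, which is 5.87-fold lower (95% interval 5.19 to 6.64). Within the authors' MYB class this cluster took 4th place in each fertile library and 20th or 21st place in the sterile ones.

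Cluster-6671.19711, the least abundant, had the lowest fold change of the 5 and of the 61 tested clusters in the authors' MYB class. Outside that class, the scarce MYB90 cluster (Cluster-6671.14699) was lower still, at -5.63 ± 0.75. The FPKM of Cluster-6671.19711 was 34.7, 30.1 and 30.1 in fertile and 4.01, 4.85 and 4.47 in sterile buds. These values rested on 709 to 894 counts per fertile library and 68 to 91 per sterile library, the smallest counts among the 5 clusters. The log2 fold change was -2.98 ± 0.11, or 7.91-fold lower (95% interval 6.71 to 9.32). Among the 1380 regulator clusters tested it had the 18th lowest fold change, and Cluster-6671.12840 the 24th.

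**Figure D1:**
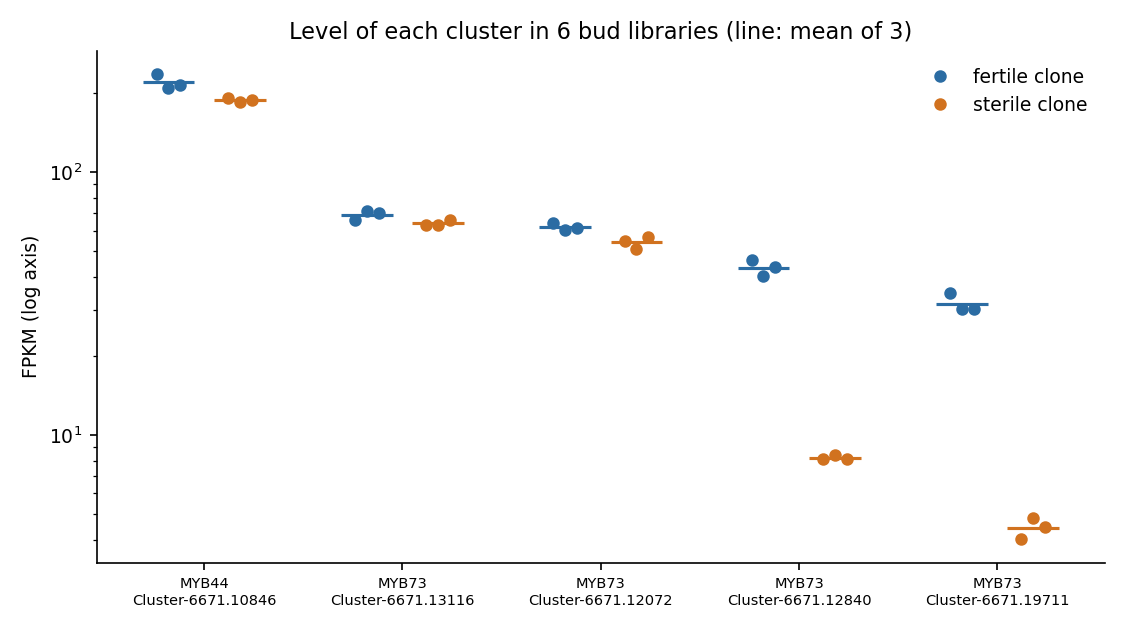
FPKM on a log axis of each of the 5 clusters in 3 fertile (blue) and 3 sterile (orange) bud libraries, with a line at each mean. The sterile points lie slightly below the fertile ones in the 3 clusters at the left (means of 188, 64.0 and 54.1 against 220, 68.9 and 61.8 FPKM) and far below them in the 2 at the right (8.21 and 4.44 against 43.4 and 31.6).

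The order of the 5 clusters by FPKM was the same in both clones: MYB44, then Cluster-6671.13116, Cluster-6671.12072, Cluster-6671.12840 and Cluster-6671.19711. No neighbours in this order overlapped within a clone. The closest pair in fertile buds was Cluster-6671.13116 and Cluster-6671.12072, whose means differed 1.11-fold and whose nearest values were 65.7 and 63.9 FPKM. The step from Cluster-6671.12072 down to Cluster-6671.12840 was 1.42-fold in fertile buds and 6.59-fold in sterile buds. The levels of 3 clusters therefore kept together in the sterile clone while those of the other two stood apart from them.

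Ratios within a library, which do not depend on its depth or scale, showed the same division. Cluster-6671.12072 stood at 28.2 ± 1.02% of the MYB44 level in fertile and 28.7 ± 1.23% in sterile buds (SD, n = 3), and the groups overlapped. Cluster-6671.13116 stood at 31.5 ± 3.29% and 34.0 ± 1.08%, again with overlap. Cluster-6671.12840, by contrast, stood at 19.8 ± 0.574% of the MYB44 level in fertile and 4.36 ± 0.177% in sterile buds. For Cluster-6671.19711 the values were 14.4 ± 0.327% and 2.36 ± 0.273%. These last 2 clusters also did not move in proportion to each other. Cluster-6671.19711 held 75.1%, 74.7% and 68.7% of the level of Cluster-6671.12840 in fertile replicates 1 to 3, against 49.4%, 57.7% and 55.1% in sterile replicates 1 to 3, with no overlap.

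**Figure D2:**
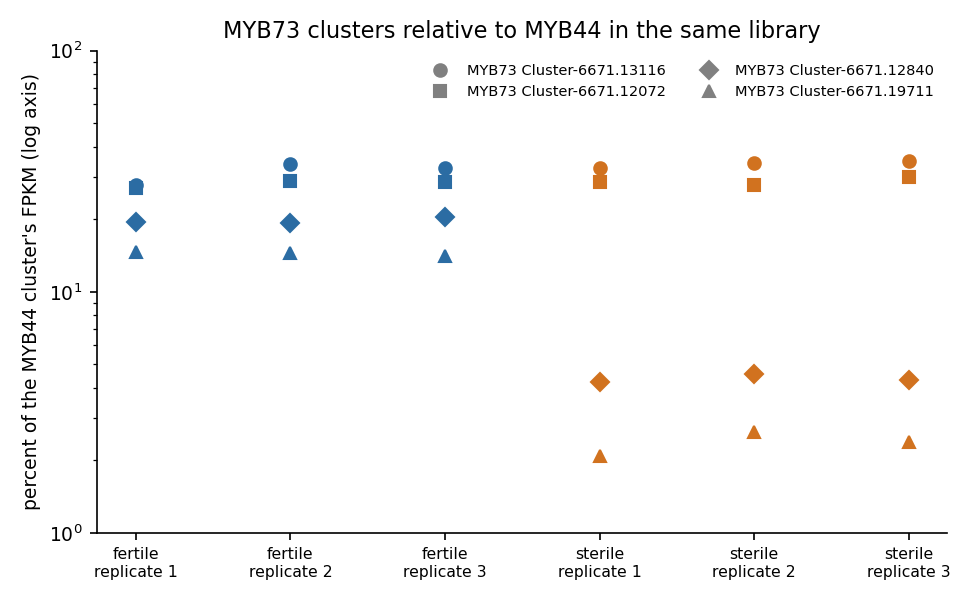
Level of each of the 4 MYB73 clusters as a percentage of the MYB44 cluster's FPKM in the same library, on a log axis, for fertile (blue) and sterile (orange) libraries. Circles and squares stay near 31.5% and 28.2% in fertile and 34.0% and 28.7% in sterile buds, while diamonds go from 19.8% to 4.36% and triangles from 14.4% to 2.36%.

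Summed over the 5 clusters, the level was 426 ± 19.1 FPKM in fertile and 319 ± 6.12 in sterile buds (SD, n = 3), with all sterile sums below all fertile sums. The MYB44 cluster made up 51.6 ± 1.13% of that sum in fertile and 59.0 ± 0.714% in sterile buds. Cluster-6671.12840 and Cluster-6671.19711 supplied 10.2 ± 0.328% and 7.43 ± 0.305% of the sum in fertile but 2.57 ± 0.105% and 1.39 ± 0.155% in sterile buds. As a share of the FPKM of the authors' MYB class, the 5 clusters took 48.8 ± 1.80% in fertile and 39.7 ± 0.594% in sterile buds. That total leaves out MYB factors classed elsewhere. Among them are MYB6 (116 FPKM in fertile and 60.4 in sterile buds) and MYB20 (2.21 and 47.8). The 4 MYB73 clusters alone summed to 206 FPKM in fertile (202 to 210.5) and 131 in sterile buds (128 to 135). With their counts added up before the fit, the log2 fold change of MYB73 was -0.71 ± 0.06, a value that lies between the small and the large declines of its parts.

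**Figure D3:**
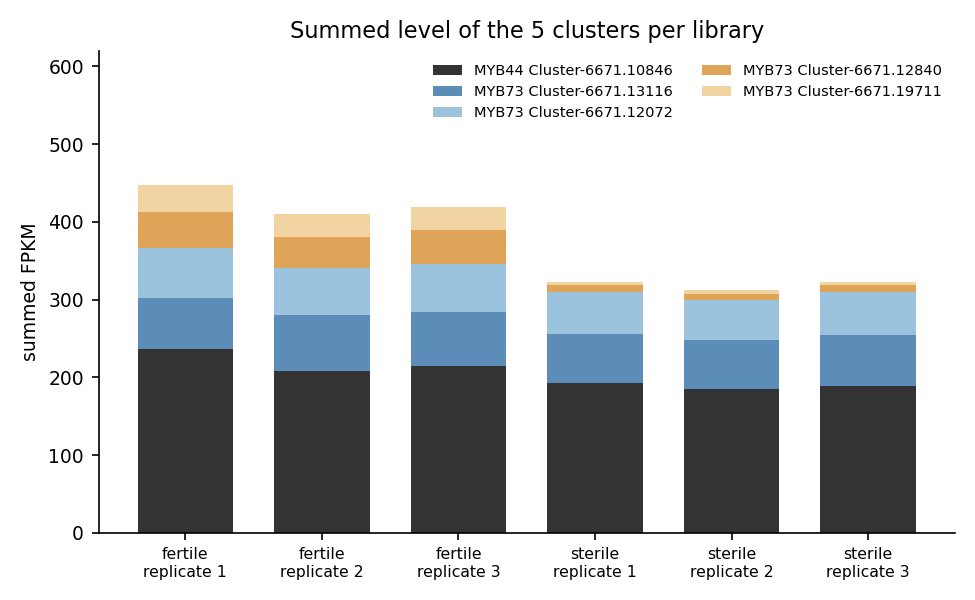
Summed FPKM of the 5 clusters in each library, stacked by cluster. The bars reach 410 to 447 FPKM in the fertile and 312 to 323 in the sterile libraries, and the top 2 segments (Cluster-6671.12840 and Cluster-6671.19711) shrink to thin bands in sterile buds.

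All 5 clusters passed the low-count filter. The fit over the whole table calls a cluster where edgeR's quasi-likelihood test gives an adjusted p under 0.05, and by that threshold all 5 fall among the lower clusters, which is a description of them and not a test. In that comparison 57.0% of the 1380 tested clusters were called, 28.9% lower and 28.0% higher in sterile buds. A fold change of at least 2 in the lower direction was reached by 2 of the 5, as by 7.68% of all tested clusters. The FPKM of the groups did not overlap in any of the 5, as in 22.5% of all tested clusters in that direction. Nothing is read from these counts, because the choice of symbols used the same contrast. The median log2 fold change of the 5 was -0.37, beside -0.17 in the 56 other tested clusters of the R2R3-type MYB family and 0.01 in all regulators. Since the bud samples of a group come from 1 clone, the calls measure the spread between samples, which may be technical in part.

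The small declines depended on how libraries were scaled. The fit above sets the regulators as a whole to no net change. When the whole-library sizes implied by counts, FPKM and lengths were used instead, the median of all regulators moved from 0.01 to 0.15 and the calls from 387 higher and 399 lower to 567 higher and 297 lower. On that scale the MYB44 cluster stood at -0.24 and Cluster-6671.12072 at -0.21, and Cluster-6671.13116 was no longer called, at -0.12. With limma on log2(FPKM + 1) the split was 569 higher and 277 lower, and these clusters stood at -0.22, -0.19 and -0.10, the last again not called. Measured from the median of all regulators in the first fit, the values were -0.39 for MYB44, -0.36 for Cluster-6671.12072 and -0.27 for Cluster-6671.13116. Another library scale shifts all clusters nearly alike, so these distances stay nearly the same by construction and do not bear on the lost call. The 2 large declines were -2.42 and -2.85 with the implied library sizes.

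**Figure D4:**
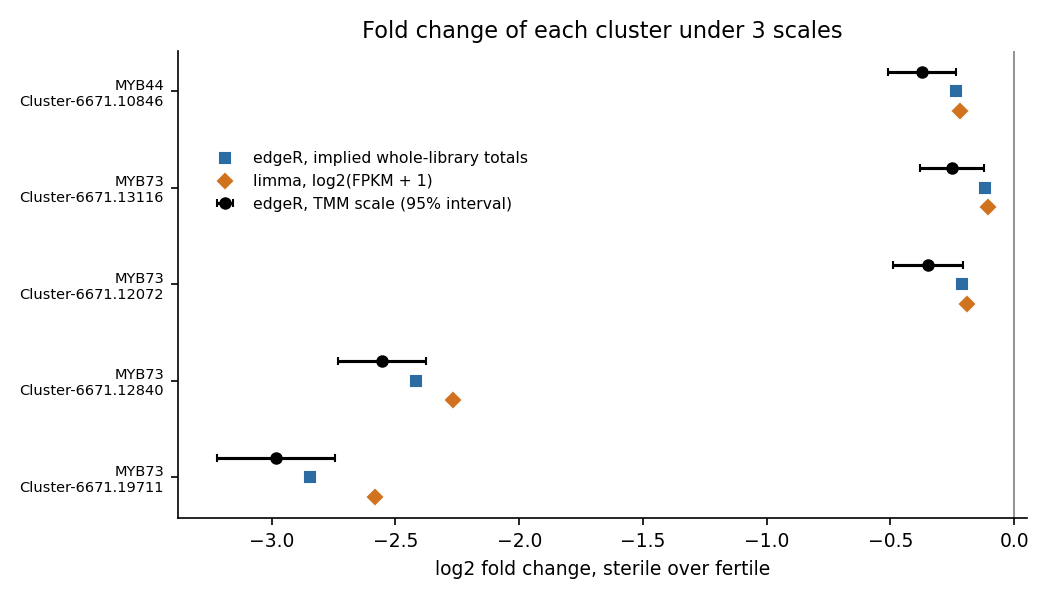
Log2 fold change, sterile over fertile, of each cluster in edgeR's fit with TMM scaling (black, with 95% interval), in the same fit with implied whole-library totals (blue) and in limma on log2(FPKM + 1) (orange). All points lie below 0, and for Cluster-6671.13116 the latter fits give -0.12 and -0.10, which were not called.

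The authors' deposited table gives its own comparison for the same clusters. In it the log2 fold change was -0.30 for the MYB44 cluster, -0.28 for Cluster-6671.12072 and -0.18 for Cluster-6671.13116, and the authors' deposited table marks none of these 3 as regulated. It marks Cluster-6671.12840 (-2.49) and Cluster-6671.19711 (-2.92) as down. The smallest absolute log2 fold change among the regulators marked in the authors' deposited table was 1.00.

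The cluster nearest to the rule without meeting it was Cluster-10808.0, called MYB44-like by both its Prunus hits but MYB52 by Swiss-Prot. It was scarcely detected, with 0.61, 0.50 and 0.62 FPKM in fertile and 0.56, 0.17 and 0.62 in sterile buds, from 3 to 15 counts per library. The groups overlapped, and no difference was detectable at this depth.

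Other regulators that Arabidopsis work links to these MYBs did not share a single direction. Among the defence WRKY factors all 6 tested clusters were lower in sterile buds, with a median log2 fold change of -2.62, against 28.9% lower among all regulators. WRKY70, the gene that MYB44 activates in Arabidopsis, was the name of 3 of these clusters. The most abundant of them (Cluster-6671.16206) stood at 19.9 ± 2.84 FPKM in fertile and 1.64 ± 0.311 in sterile buds (SD, n = 3), a log2 fold change of -3.75 ± 0.16. WRKY18 (Cluster-6671.6976) was also lower, at 17.4 ± 0.59 FPKM in fertile and 3.18 ± 0.0346 in sterile buds (-2.60 ± 0.11). WRKY40 (Cluster-6671.15139), its partner in pathogen response, was lower at -0.69 ± 0.12. The WRKY names were picked with these values known, so the list is no independent evidence of a link.

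Of 10 tested abscisic acid factors, 5 stood higher and 2 lower in sterile buds and 3 were not called, around a median of 0.28. Their log2 fold changes ran from -8.51 to 1.56. The lowest, also the lowest of all 1380 tested regulators, was that of a DPBF3 cluster (Cluster-8439.0), at -8.51 ± 0.39 (SE). It stood at 7.13 ± 0.673 FPKM in fertile and 0.0167 ± 0.0289 in sterile buds (SD). Other DPBF3 clusters (Cluster-6671.13456 and Cluster-6671.5755) were not called. ATHB-6, a homeobox factor of the abscisic acid pathway, named a higher and a lower cluster. The higher one (Cluster-6671.10814) stood at 178 ± 2.74 FPKM in fertile and 243 ± 2.98 in sterile buds. The lower one (Cluster-6671.11439) stood at 47.3 ± 1.12 and 39.8 ± 1.47 FPKM. Their log2 fold changes were 0.30 ± 0.05 and -0.40 ± 0.07. ATHB-12 (Cluster-6671.4034), a homeobox factor of water-deficit response, was higher at 0.36 ± 0.08.

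Auxin response factors, the family that MYB77 works with in Arabidopsis, had log2 fold changes within a narrow range, all 17 clusters lying between -0.56 and 0.25. Of these 4 were called higher, 5 lower and 8 not at all. ARF8 (Cluster-6671.9363) was higher at 0.17 ± 0.06 and ARF6 (Cluster-6671.14565) at 0.20 ± 0.06, both factors of stamen and flower maturation, while ARF2 (Cluster-6671.11237) was lower at -0.43 ± 0.07. The balance turned to 7 higher and 4 lower with the implied library sizes, to 8 and 4 with limma on log2(FPKM + 1), and to 2 and 6 without the low-count filter. Leaving out fertile replicate 1 raised the number called to 14 (7 higher and 7 lower). Leaving out sterile replicate 2 cut it to 0 higher and 5 lower, and leaving out sterile replicate 3 to 1 higher and 5 lower. ARF8 and ARF6 lost their call in both cases, at 0.15 and 0.18 without sterile replicate 2 and 0.14 and 0.18 without sterile replicate 3, and ARF8 also without the low-count filter (0.14).

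MYBs of the subgroups nearest to that of MYB44 had 1 higher, 2 lower and 1 not called of 4 tested. MYB117 (Cluster-6671.15218), a factor of organ boundaries and lateral branching in Arabidopsis, was lower, with 29.6 ± 0.568 FPKM in fertile buds and 18.7 ± 0.488 in sterile buds (-0.81 ± 0.06). MYB1 named a higher cluster (Cluster-6671.3112, 0.45 ± 0.08) and a lower one (Cluster-6671.2590, -0.63 ± 0.10). Stress-related MYBs of other subgroups split as well, with 2 higher, 1 lower and 1 not called of 4. MYB20 (Cluster-6671.4513) and the drought-response factor MYB2 (Cluster-6671.315) were higher at 4.28 ± 0.09 and 1.56 ± 0.20. A MYB102 cluster (Cluster-6671.14044) was lower at -2.18 ± 0.43. It was scarce, at 1.42 FPKM in fertile and 0.337 in sterile buds. Its value was -0.88 in limma on log2(FPKM + 1) and -3.19 without sterile replicate 2. Another MYB102 cluster (Cluster-6671.21260) was not called, at 0.62.

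**Figure D5:**
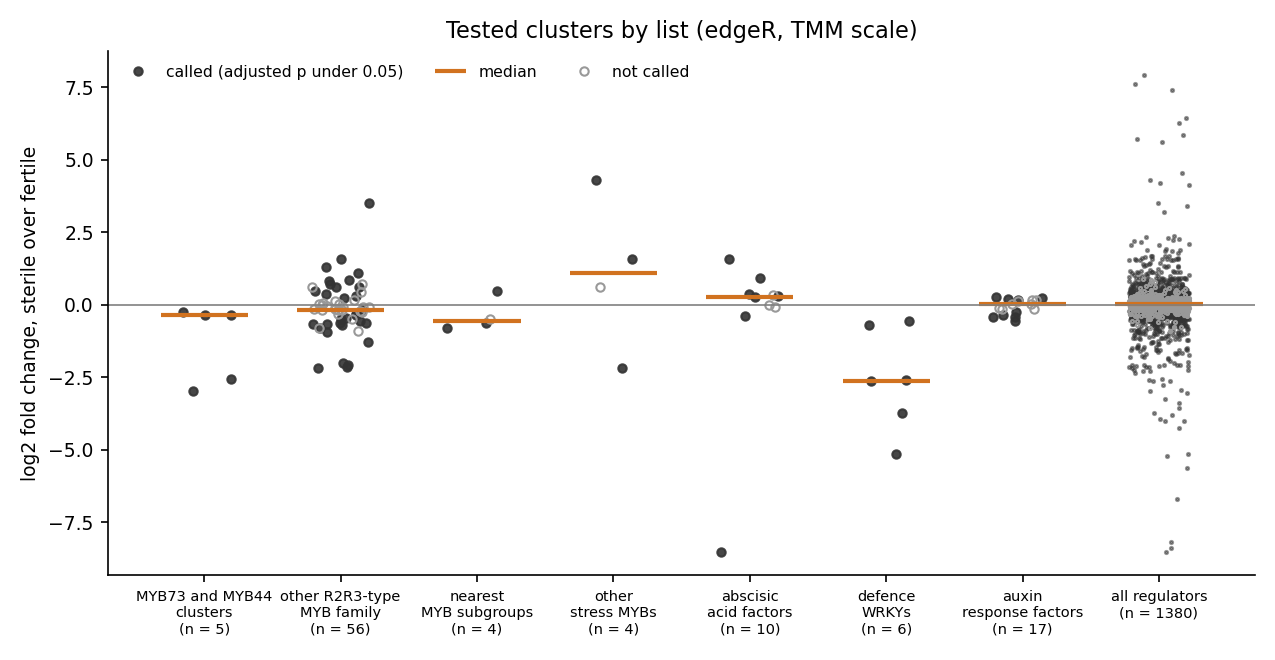
Log2 fold change, sterile over fertile, of each tested cluster by list (edgeR with TMM scaling), with filled points for calls, open points for clusters not called and an orange line at each median. The 5 MYB73 and MYB44 clusters have a median of -0.37 and the 6 defence WRKYs -2.62, while the 1380 regulators centre on 0.01; the 2 smaller MYB lists are also part of the MYB family column where the authors class them there.

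By profile over the 6 libraries, the regulators most like the MYB44 cluster were TPPJ (a trehalose-phosphate phosphatase), the ethylene-response-type factor RAP2-4 and the NF-Y subunit NFYC1. Likeness was the root mean square distance between centred log2(FPKM + 1) values, among 1310 named clusters that passed the filter, and came to 0.032, 0.036 and 0.0428. For Cluster-6671.13116 the nearest were FRS5, LACS8 and NAC056, at 0.0259, 0.029 and 0.0293. RAP2-4 stood at 80.5 FPKM in fertile and 71.0 in sterile buds and NAC056 at 77.9 and 72.6, small declines like those of the MYB clusters. These points share 6 libraries of 2 clones, and nothing is said of shared function.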

How the data were processed

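RNA-seq libraries of 3 male sterile and 3 male fertile bud samples were analysed. The submitters' processing notes name CASAVA, RSEM and Bowtie2 but give neither version nor role. The sources used here name no assembler, genome build or strand setting. The authors deposited estimated counts, which need not be whole, and FPKM values for 1508 regulator clusters (1625 entries, of which 114 clusters stood under more than 1 family and were used once). They also deposited FPKM of 34377 clusters, identical for the shared 1508. Per the file headers, the deposited regulator table also holds cluster length, database hits with a similarity score, and the authors' own log2 fold change with its q-value.

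Counts were rounded and fitted over the whole table with edgeR 4.0.16 (R 4.3.3), using TMM scaling after filterByExpr had removed 128 clusters holding 0.0424% of counts. P-values came from the robust quasi-likelihood test with Benjamini-Hochberg adjustment at 0.05. The standard error was taken from the size of the fold change and the F value. The code was tested on simulated counts. Alternatives used DESeq2 1.42.0 and limma 3.58.1 (clusters reaching 1 FPKM in 3 or more libraries, pseudocounts of 1 and 0.1). Whole-library sizes were implied by a robust fit, against length, of each cluster's count divided by its FPKM (at least 5 FPKM and 50 counts). Libraries of a clone differed beyond sampling noise (chi-square per degree of freedom 1.57 to 12.3). Counting by this kind of software can divide reads among paralogs.

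The members and lists were chosen with earlier results of these data known. All 5 members are named. Of each WRKY, abscisic acid, auxin response and MYB list, the 3 called clusters with the highest mean FPKM are named. That rule was not applied to the bud tissue marker lists, where some clusters that meet it are not named. The WRKY70 cluster given with its level met the naming rule, and the number of clusters named WRKY70 was given outside that rule. Cluster-10808.0, MYB6, MYB90, MYB26, the DPBF3 clusters and the MYB102 cluster that was not called were also named outside it.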

Additional observations from a re-analysis of the deposited data

How the results depend on the processing

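Over 14 alternatives per result, no direction of the 5 clusters reversed, and 4 or 5 of them were called in each, the exception being Cluster-6671.13116 with implied whole-library totals (-0.12) and in limma with a pseudocount of 1 (-0.10) or 0.1 (-0.11). The median log2 fold change of the 5 moved from -0.37 to -0.24 with implied totals and to -0.22 in either limma fit. These scales also move the median of all regulators by the amount given above. Leaving out a library gave a median between -0.42 and -0.30. The calls over all regulators ranged from 703 to 906, and those of the auxin response list from 5 to 14 with a library left out. The log2 fold change of the MYB73 sum, a description like those of its members, ranged from -0.76 to -0.57, and was -0.71 with a replicate block. Replicate numbers are shared by both clones but did not pair the samples: same-numbered libraries deviated together at r = 0.0164, 0.0267 and 0.00892 across clusters, 3 of 6 samples correlated best with their own number, and the block gave 781 calls against 786. Depth limits the clusters with the fewest counts, above all Cluster-10808.0.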

Other observations

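In the deposited annotation all 5 clusters carry the Pfam domain SLIDE, a fold known from chromatin remodelling ATPases that resembles the MYB repeat, and with it the term chromatin remodeling. Among the other R2R3-type MYB clusters 34 of 62 carry it, or 54.8%, and 4.05% of all regulators do. None of the 1508 regulator clusters was given the usual MYB DNA-binding Pfam domains. The annotation also differs among the 5, since 3 have the KEGG entry for plant MYB proteins, as have 54 of the 62 other family members, and 1 has the KOG class of MYB transcription factors.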
